A study of Mus musculus with 6 samples.

Results

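The subject here is a set of 8 mouse genes that carry glucose and lactate across membranes: the glucose transporters Slc2a1, Slc2a3, Slc2a6 and Slc2a8, the monocarboxylate transporters Slc16a1, Slc16a3 and Slc16a6, and basigin (Bsg), the chaperone that brings lactate transporters to the cell surface. They were taken by name, not by their values, and all 8 were found among the 22962 genes of the deposited table. RNA was sequenced from alveolar macrophages, the resident phagocytes of the air spaces, of C57BL/6 mice given saline or bleomycin through the trachea. Bleomycin is a DNA-breaking drug that scars the mouse lung. Cells were washed out of the lungs at 2 weeks, freed of red cells, left on plastic for 30 minutes and lysed after the loose cells were rinsed off. The saline group holds replicates 1, 2 and 3 and the bleomycin group replicates 1, 2 and 5, and both groups share strain, cell preparation and time. Age and sex were not used here. The labels do not say whether libraries came from separate or pooled mice, and each p-value therefore weighs only the library-to-library spread, which may be partly technical. The comparison asks how the transporter transcripts of these cells differ between normal and fibrotic lungs.

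Facilitative glucose transporters of the Slc2a family let glucose move down its gradient, and glycolysis then turns it into pyruvate and lactate. Lactate leaves or enters the cell together with a proton through monocarboxylate transporters of the Slc16a family, of which Slc16a3 is best known for export from glycolytic cells and Slc16a1 for movement in either direction. Slc16a1 and Slc16a3 reach the plasma membrane only when paired with an immunoglobulin-like chaperone, usually basigin. Macrophages are known to raise Slc2a1 and glycolysis when activated, while resident alveolar macrophages live in air spaces where glucose is scarce.

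The values are read counts divided by a size factor for each library, called normalized read counts below, from libraries of 27654799 to 37147983 reads. Of the 8 genes, Slc2a3 rested on the fewest reads, 60 over the saline and 108 over the bleomycin group, and each of the other 7 on at least 1572 in each group. Macrophage markers were present in both groups: the 10 listed, Siglecf and Marco among them, summed to 174436 to 200115 in saline and 180194 to 196787 after bleomycin. The largest parts of these sums were Itgax (means 50914 and 53115) and Cd68 (47118 and 61676), so the sums say little on the other markers. Of these 10, 1 was higher and 1 lower at a limma adjusted p under 0.05, against 9.76% and 3.9% of all tested genes. The lower was Siglecf, the lectin that marks resident alveolar macrophages, which fell from 14580.1 ± 1790.0 to 7713 ± 477 (SD, n = 3 each). The higher was Fcgr1, which went from 1896 ± 243 to 3276 ± 317. Marco went from 23485 ± 16450 to 9301 ± 2568 and did not pass (limma adjusted p = 0.165). Saline replicate 2 stood apart in several genes, chosen for mention after their values were seen. Marco, a scavenger receptor, read 9576, 41642 and 19236 in saline replicates 1, 2 and 3, and the transcription factor Myc read 480.5, 1708 and 514. Calls and levels of the 8 genes that moved by over 1.5 times without this library are given with and without it. Log2 fold changes (bleomycin minus saline) are of log2(value + 1) and are given ± SE with the limma p-value adjusted over 13512 tested genes.

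Slc2a1 and Slc16a1 rose after bleomycin, and the other 6 genes did not pass the test. Of the 8 genes, 2 were called higher and 0 lower at an adjusted p under 0.05, where 13.7% of all tested genes were called, 9.76% higher and 3.9% lower. Quantile normalization called 1114 genes higher and 752 lower in place of 1319 and 527, with the same 2 of the 8 among those higher. All 8 had passed the filter on low values. In 2 of the 8, the same genes, the groups did not overlap, as was the case in 30.8% of all tested genes. At an unadjusted p under 0.05 limma also put 0 of the 8 lower, as did edgeR and DESeq2 after adjustment. The median log2 fold change was 0.26 over the 8 genes and -0.0096 over all tested genes.

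**Figure D1:**
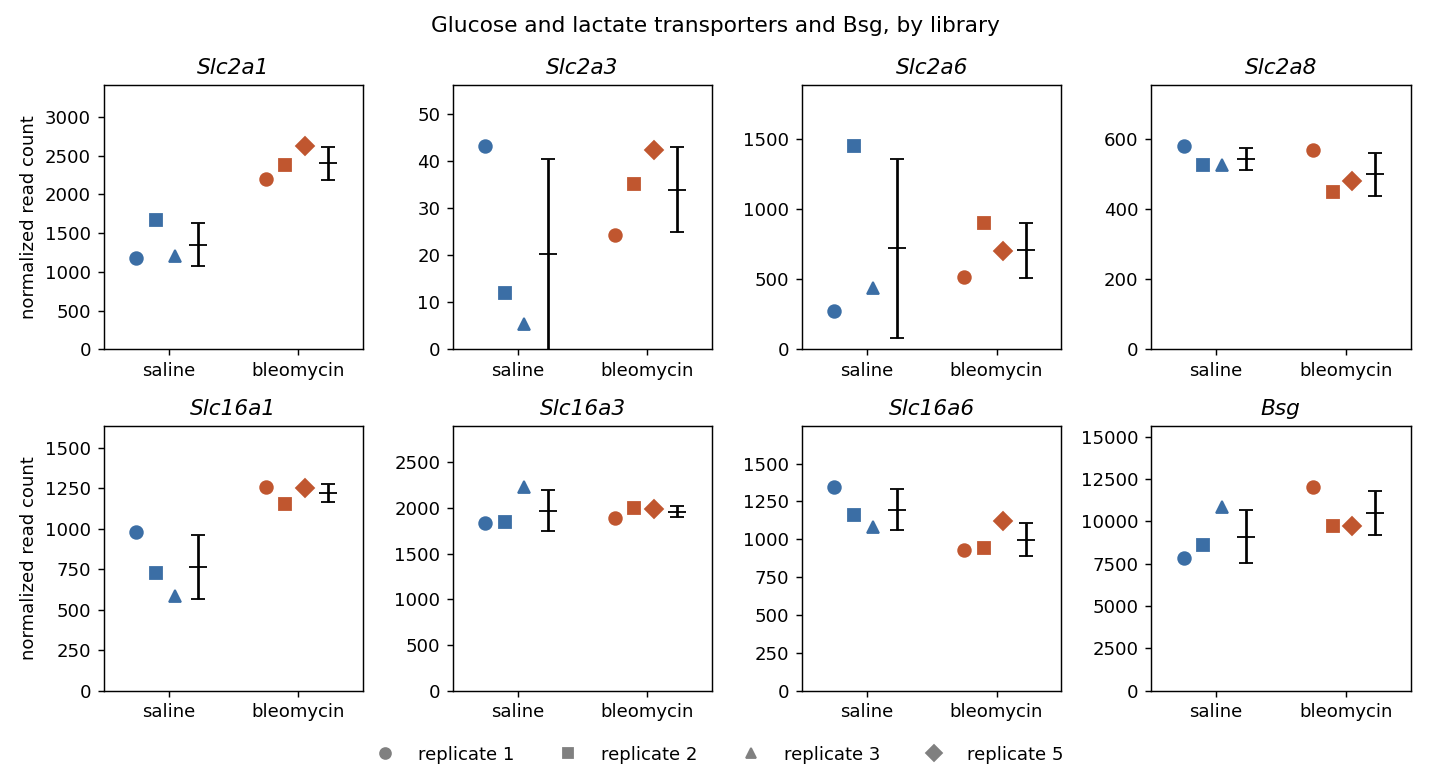
Normalized read count (vertical axis, linear from 0) of each of the 8 genes in the 3 saline and 3 bleomycin libraries, with 1 symbol per library by replicate number and the group mean ± SD in black at the right of each group. The bleomycin libraries lie above all saline libraries for Slc2a1 and Slc16a1, and the groups overlap in the other 6 panels.

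Among the glucose transporters, Slc2a1 (ENSMUSG00000028645, GRCm38 chromosome 4, 119108711 to 119137983), the main carrier for basal glucose entry, read 1183, 1675 and 1199 in saline replicates 1, 2 and 3. It read 2204, 2379.9 and 2625 in bleomycin replicates 1, 2 and 5, and every bleomycin library was above every saline library. The mean went from 1352 ± 279.8 to 2403 ± 212 (SD, n = 3 each), a 1.80-fold rise (log2 0.84 ± 0.16, 95% interval 0.48 to 1.20, limma adjusted p = 0.00873). Saline replicate 2 was the highest of its group, and without it the log2 change was 1.01. The call was lost without bleomycin replicate 5 (log2 0.78, adjusted p = 0.0561). An antisense gene, Gm12868, shares up to 105 bases of exon with Slc2a1 but read no more than 10.3 in any library.

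Slc2a3 (ENSMUSG00000003153, chromosome 6, 122727809 to 122801640), a high-affinity glucose carrier best known from neurons and white blood cells, was close to the floor of the measurement. Its values were 43.1, 12.0 and 5.30 in saline and 24.3, 35.2 and 42.2 after bleomycin, from 44, 11 and 5 against 27, 32 and 49 reads. The groups overlapped because saline replicate 1 was the highest of all 6 libraries. The log2 change was 1.15 ± 0.66 (95% interval -0.37 to 2.67, adjusted p = 0.335). Without saline replicate 1 it was 1.91 and passed (adjusted p = 0.0473), so the call for this gene turned on a single library of 44 reads.

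The remaining glucose transporters of the set sit mainly on membranes inside the cell. Slc2a6 (ENSMUSG00000036067, chromosome 2, 27021363 to 27027998), found on lysosomes, read 271, 1450.4 and 441 in saline and 514, 902 and 701 after bleomycin. Its highest and its lowest value were both saline, and the SD of the saline group (638) was nearly as large as its mean (721). The log2 change was 0.30 ± 0.53 (95% interval -0.91 to 1.51, adjusted p = 0.793). It was 0.99 without saline replicate 2 (adjusted p = 0.0779) and -0.22 without saline replicate 1, so these data give it no direction. Slc2a8 (ENSMUSG00000026791, chromosome 2, 32972990 to 32982083), held on internal membranes by a sorting signal, was steady at 580.5, 525 and 527 in saline and 569, 449 and 481 after bleomycin. Its log2 change was -0.13 ± 0.14, and the upper end of its 95% interval, -0.46 to 0.20, is below the rise of Slc2a1.

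Among the lactate transporters, Slc16a1 (ENSMUSG00000032902, chromosome 3, 104638668 to 104658462), which moves lactate, pyruvate and ketone bodies in both directions, read 982, 727 and 588 in saline and 1258, 1156 and 1249.8 after bleomycin. The groups did not overlap, and the bleomycin libraries were more alike than the saline libraries. The mean went from 765 ± 199.8 to 1221 ± 56.6 (n = 3 each), a 1.63-fold rise (log2 0.70 ± 0.18, 95% interval 0.28 to 1.13, adjusted p = 0.0375). This call was the less secure: it was lost without any single library except saline replicate 1 (log2 0.53 to 0.74, adjusted p = 0.0745 to 0.150), and with no intensity trend in the test (adjusted p = 0.0887).

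Slc16a3 (ENSMUSG00000025161, chromosome 11, 120948480 to 120960868), the exporter of glycolytic cells, had nearly equal means. It read 1836, 1847 and 2228 in saline and 1895, 1998 and 1989 after bleomycin, so the bleomycin values all lay within the saline range. The log2 change was -0.0016 ± 0.12 with a 95% interval of -0.27 to 0.27 (adjusted p = 0.995), which is below the size of the change in Slc16a1. Slc16a6 (ENSMUSG00000041920, chromosome 11, 109450855 to 109473598), a relative whose transport of ketone bodies has been described, read 1344, 1164 and 1083 in saline and 928, 939 and 1121 after bleomycin. Its log2 change was -0.26 ± 0.14 (95% interval -0.58 to 0.05, adjusted p = 0.278). Up to 1052 of its 4883 exon bases are shared with a gene on the opposite strand, and since the strand setting of the counting is not given in the sources used here, its level is uncertain.

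Bsg (ENSMUSG00000023175, chromosome 10, 79704491 to 79711969) was the most abundant of the 8. It read 7850.4, 8581 and 10851 in saline and 12019, 9743 and 9731 after bleomycin, and the groups overlapped through saline replicate 3. The log2 change was 0.21 ± 0.15 (95% interval -0.13 to 0.56, adjusted p = 0.445). In the plot of fold changes with a library left out, Bsg stayed between 0.11 and 0.35 and never passed.

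**Figure D2:**
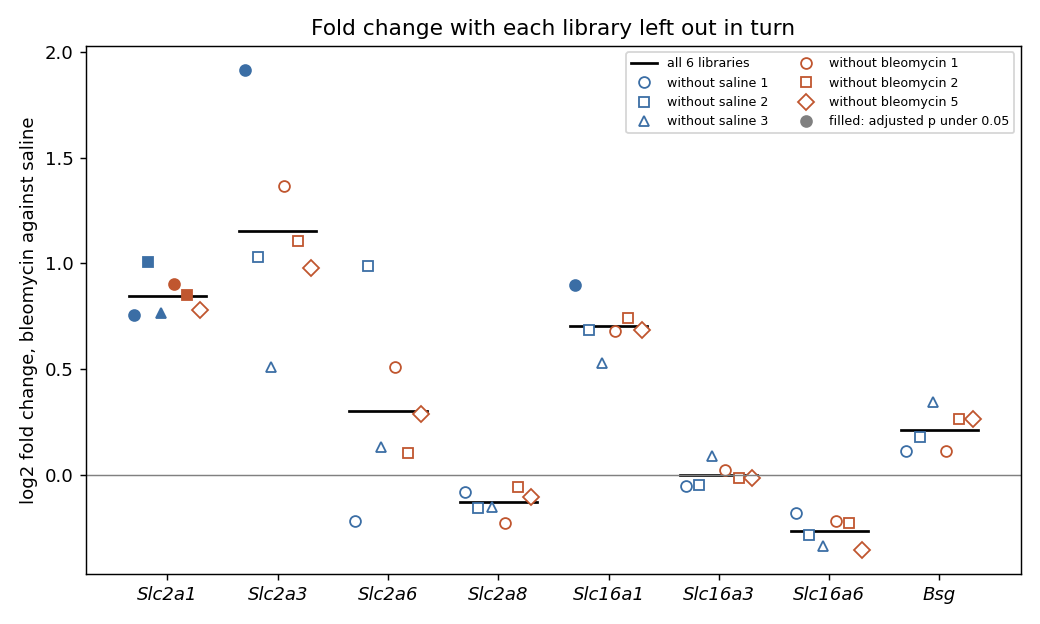
Log2 fold change (vertical axis) of each of the 8 genes with all 6 libraries (black line) and with each library left out in turn (blue for saline, orange for bleomycin, shape by replicate number, filled where the adjusted p is under 0.05). Slc2a1 stays between 0.76 and 1.01, while Slc2a6 runs from -0.22 to 0.99 and Slc2a3 from 0.51 to 1.91.

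Stretches of DNA before the RefSeq start sites of the 2 genes that rose and of Slc16a3, which did not pass, are shown. The letters known as recognition cores in glucose transporter control can be compared in them. Each is 200 bases on the gene's own strand, ending before the first annotated exon base in the record or at the start site. The RefSeq promoter records, on GRCm38.p6, held 5 of the 8 genes. The annotated Slc16a3 gene starts upstream, at 120948480, so its window lies inside that gene and not before its first exon. The motifs searched on both strands were ACGTG and GCGTG, the cores bound by hypoxia-inducible factors, CACGTG, the E-box read by Myc and glucose-sensing factors, GGGCGG, the GC box, and TGACTCA, the AP-1 element. Matches are in capitals, a match on the other strand appears as its complement, and ACGTG overlaps CACGTG. The windows of Slc2a6 and Slc2a8, which did not pass, were also searched and are not printed. Slc2a6 had 4 matches and Slc2a8 had 1 match to GCGTG, so this core was not limited to the genes that rose. Slc2a6 also had 1 GC box and Slc2a8 had 0. Slc2a1 lies at chr4:119108511-119108710 (plus strand, 34 bases short of the RefSeq start site), Slc16a1 at chr3:104638464-104638663 (plus strand, ending at the start site) and Slc16a3 at chr11:120948853-120949052 (plus strand, 14 bases short of it).
Slc2a1: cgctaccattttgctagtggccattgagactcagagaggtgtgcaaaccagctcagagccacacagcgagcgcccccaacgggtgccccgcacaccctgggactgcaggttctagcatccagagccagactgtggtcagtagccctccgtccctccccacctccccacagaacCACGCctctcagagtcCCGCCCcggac
Slc16a1: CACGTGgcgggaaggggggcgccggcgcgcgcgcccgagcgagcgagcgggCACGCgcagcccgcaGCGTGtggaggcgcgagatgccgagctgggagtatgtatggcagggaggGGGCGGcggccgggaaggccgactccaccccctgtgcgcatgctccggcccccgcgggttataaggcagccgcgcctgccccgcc
Slc16a3: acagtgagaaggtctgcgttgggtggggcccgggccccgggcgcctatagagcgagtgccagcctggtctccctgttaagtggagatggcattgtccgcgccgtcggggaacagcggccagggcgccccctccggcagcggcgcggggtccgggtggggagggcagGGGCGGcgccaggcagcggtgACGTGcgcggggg
The Slc2a1 window held 1 GCGTG and 1 GGGCGG. The Slc16a1 window held 1 CACGTG, which reads as ACGTG on both strands, with 2 GCGTG and 1 GGGCGG. The Slc16a3 window held 1 ACGTG and 1 GGGCGG. None of the 3 held TGACTCA. Over 32851 windows of the same length before RefSeq start sites, 14.0% held ACGTG, 24.7% GCGTG, 5.26% CACGTG, 31.0% GGGCGG and 3.66% TGACTCA, so GGGCGG and GCGTG are common letters in such windows. These are letter matches only.

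Levels of different genes were set side by side per kilobase of exon. In saline libraries Bsg stood at 5013 ± 863 normalized reads per kilobase, 13.0-fold above the next gene. Slc2a1 (386 ± 79.8) and Slc16a3 (370.5 ± 42.0) came next and overlapped, followed by Slc16a6 (245 ± 27.4), Slc2a6 (224 ± 199), Slc16a1 (173 ± 45.1) and Slc2a8 (169.6 ± 9.83), each overlapping its neighbour. Slc2a3 was last at 2.78 ± 2.79. In bleomycin libraries the order per kilobase was Bsg (5787 ± 726), Slc2a1 (685 ± 60.3), Slc16a3 (369 ± 10.6), Slc16a1 (276 ± 12.8), Slc2a6 (219.7 ± 60.5), Slc16a6 (204 ± 22.2), Slc2a8 (156 ± 19.2) and Slc2a3 (4.68 ± 1.25). There Slc2a1 was 1.86-fold above Slc16a3 with no overlap, and Slc16a1 lay above Slc16a6, where in saline it lay below it. The saline level of Slc2a6 rested on saline replicate 2: without that library it was 111 per kilobase, below Slc16a1 (177) in saline as well. Neighbours that overlapped were Slc16a1 with Slc2a6 and Slc2a6 with Slc16a6. Divided by the longest transcript in place of all exons, Slc16a3 had 454 per kilobase in saline and lay above Slc2a1 at 415, so the order of that pair in saline depends on the length used.

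Within each family the balance can be read as a share of the family's summed level per kilobase. Slc2a1 made up 50.2%, 41.9% and 48.8% of the Slc2a sum in saline and 62.1%, 58.9% and 63.8% after bleomycin, without overlap. Slc2a6 supplied 12.5%, 39.6% and 19.6% in saline and 15.8%, 24.4% and 18.6% after bleomycin, its largest share again in saline replicate 2, without which its saline mean was 16.1% in place of 23.9%. Slc16a1 made up 14.1%, 9.83% and 9.08% of the Slc16a sum in saline and 20.7%, 18.7% and 20.2% after bleomycin. The largest part of the Slc16a sum came from Slc16a10, the carrier of aromatic amino acids, with 43.0% ± 6.22 in saline and 31.7% ± 2.12 after bleomycin (SD, n = 3 each). Slc16a3 had 23.8% ± 4.26 and 26.5% ± 0.480. The summed Slc16a level per kilobase was 1568 ± 105 in saline and 1389 ± 15.2 after bleomycin, and the summed Slc2a level was 837 ± 262 and 1113 ± 88.1. A share can move because another gene of the sum moved, so these are descriptions of balance.

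**Figure D3:**
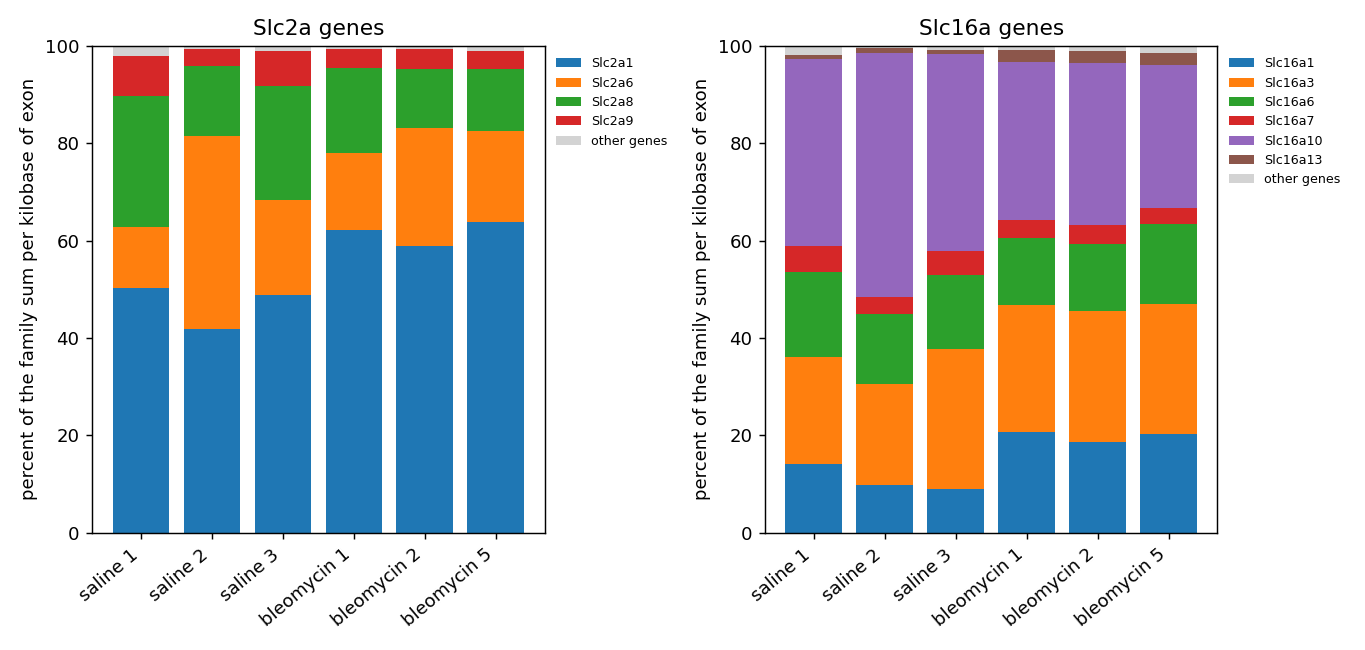
Share of each gene (vertical axis, percent) in the summed level per kilobase of exon of the Slc2a family (left) and the Slc16a family (right), 1 bar per library, with genes that never reach 2% pooled as other genes. Slc2a1 takes 41.9% to 50.2% of the Slc2a bar in saline and 58.9% to 63.8% after bleomycin, and Slc16a10 shrinks while Slc16a1 grows in the Slc16a bars.

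Whether the genes changed relative to each other was tested on the log2 ratio within each library, in 8 pairs, by an exact two-sided permutation test that cannot give less than p = 0.1 with 3 against 3 libraries. The ratio of Slc16a3 to Slc16a1 was 0.90, 1.34 and 1.92 in saline and 0.59, 0.79 and 0.67 after bleomycin, lower in every bleomycin library by a mean of 0.71 (exact p = 0.1, adjusted p = 0.16). The ratio of Slc16a3 to Slc2a1 was 0.63, 0.14 and 0.89 against -0.22, -0.25 and -0.40, again without overlap. Relative to Slc2a1, the export gene was therefore lower in each bleomycin library, with the same exact p = 0.1. Slc2a8 to Slc2a1 (difference -0.97), Slc16a6 to Slc16a1 (-0.97) and Bsg to Slc16a3 (0.22) also had separate groups at exact p = 0.1, the last by a margin of 2.28 in the highest saline to 2.29 in the lowest bleomycin library. Bsg to Slc16a1 (exact p = 0.3), Slc2a6 to Slc2a1 (exact p = 0.7) and Slc2a3 to Slc2a1 (exact p = 0.9) overlapped. Without saline replicate 2 the difference for Slc2a6 to Slc2a1 was -0.018 in place of -0.54. The permutation test could not bring any pair under 0.05 with 3 against 3 libraries, so it decides nothing on these ratios.

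Beyond the 8 genes, the Slc2a family added little. Of the 8 other Slc2a genes listed, 6 were in the table and 2 passed the filter on low values, with 0 called by limma, edgeR or DESeq2 and 0 at an unadjusted p under 0.05. Slc2a9, a urate carrier, read 249 ± 40.1 in saline and 221 ± 15.6 after bleomycin (log2 -0.16 ± 0.18, adjusted p = 0.660). Slc2a5, the fructose transporter, was at 15.2 ± 2.32 and 8.07 ± 4.68 (log2 -0.97 ± 0.52, adjusted p = 0.302). The 4 below the filter, among them the insulin-responsive Slc2a4, never exceeded 7.84.

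Among the wider Slc16a family, 1 gene was called in each direction, where 9.76% of all tested genes were called higher and 3.9% lower. All 11 other members listed were found, 5 passed the filter, and of these 1 rose and 1 fell. Slc16a13, whose substrates are less well known, read 31.4, 46.7 and 26.5 in saline and 88.0, 89.0 and 88.8 after bleomycin (log2 1.36 ± 0.28, adjusted p = 0.0144). This rise from a low level was lost without bleomycin replicate 2 or 5 (adjusted p = 0.0847 and 0.0816) and with quantile normalization (adjusted p = 0.0555). Slc16a10 fell from 4445, 6155 and 4359 to 3287, 3420.4 and 3005 (log2 -0.61 ± 0.15, adjusted p = 0.0297). Its fall was lost without saline replicate 2 or any bleomycin library (adjusted p = 0.0502 to 0.148), and with no intensity trend (adjusted p = 0.0843). With libraries blocked by replicate number, the calls of Slc16a13 and Slc16a10 were lost too (adjusted p = 0.160 and 0.180).

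Slc16a7, a high-affinity lactate and pyruvate carrier, was lower in every bleomycin library, at 1002, 705 and 856 against 585, 659 and 545, but did not pass (log2 -0.51 ± 0.16, adjusted p = 0.0774). It passed by DESeq2 (adjusted p = 0.0321) and without saline replicate 2 (adjusted p = 0.0398). Slc16a4 (log2 2.11 ± 0.91, adjusted p = 0.186) and Slc16a14 (log2 -0.86 ± 0.80, adjusted p = 0.576) were low and scattered, and Slc16a4 passed without saline replicate 1 (log2 3.10, adjusted p = 0.0324). The 6 below the filter stayed at 11.2 or less, among them Slc16a11, with 2, 0 and 0 reads against 5, 6 and 8.

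**Figure D4:**
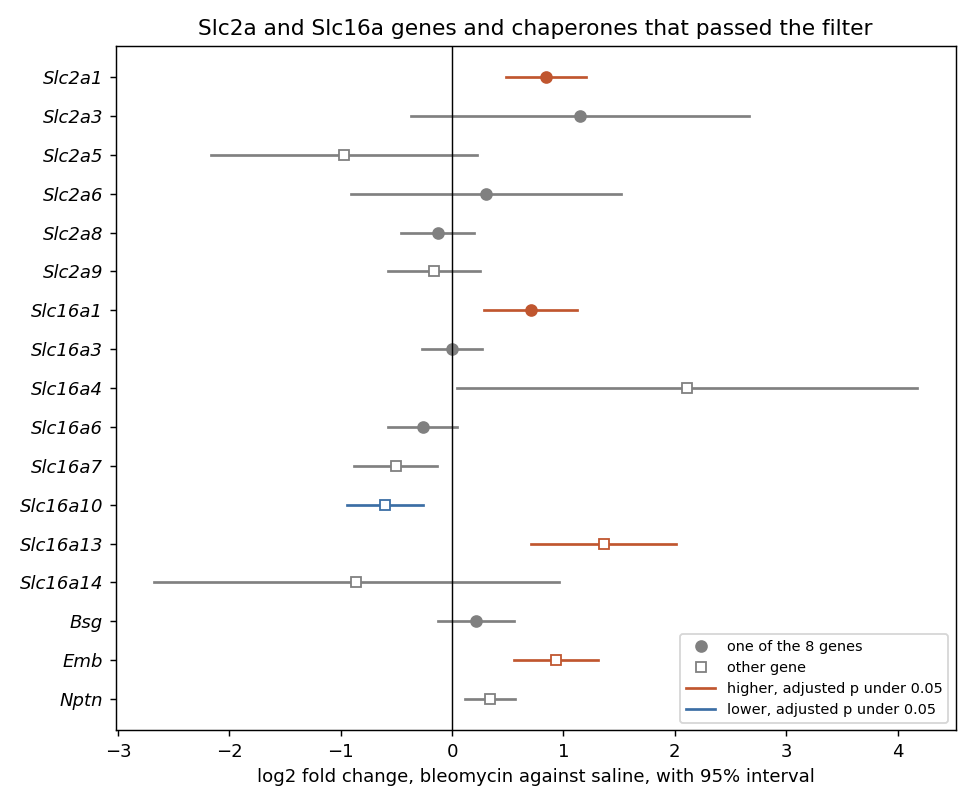
Log2 fold change of bleomycin against saline (horizontal axis) with its 95% interval for every Slc2a and Slc16a gene and chaperone that passed the filter, as filled circles for the 8 genes and open squares for the others. The calls higher (orange) are Slc2a1, Slc16a1, Slc16a13 and Emb, and the call lower (blue) is Slc16a10.

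Of the 3 chaperones, Emb rose, and Bsg and Nptn did not pass. Embigin (Emb), a relative of basigin that can also escort monocarboxylate transporters, read 3368, 2202 and 2627 in saline and 4623, 5210.2 and 5636 after bleomycin. The groups were well apart, and the mean went from 2732 ± 590.1 to 5156 ± 509, a 1.91-fold rise (log2 0.93 ± 0.16, adjusted p = 0.00661). It passed under all 17 alternatives run for it, with adjusted p from 1.6e-05 to 0.0474. Neuroplastin (Nptn), the remaining relative, was higher in every bleomycin library, 5614 ± 290.1 against 7101 ± 186, and did not pass (log2 0.34 ± 0.10, adjusted p = 0.0559, or 0.0187 by DESeq2 and 0.0395 with quantile normalization). Per kilobase of exon Emb rose from 396 ± 85.4 to 747 ± 73.7, still well under Bsg. In these libraries Slc16a1 and Emb rose together, while Bsg did not pass. The difference between the chaperones was not tested.

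Genes that feed or drain the transporters were read from lists of partners. Over all pathway lists, with the other transporters and chaperones above included, 46 genes outside the 8 were tested. Of these 7 rose and 3 fell, Slc16a13, Emb and Slc16a10 among them, or 21.7% against 13.7% of all tested genes, with a median log2 change of 0.11. The 7 include Ldhb, which could be called only as higher, as described below. The enzymes that trap glucose after entry, the hexokinases, rose in each of the 3 tested forms: Hk1 from 700.4 ± 72.4 to 1205 ± 249 (adjusted p = 0.0208), Hk2 from 1616 ± 469 to 2870.0 ± 276 (adjusted p = 0.0212) and Hk3 from 1373 ± 148 to 1955 ± 225 (adjusted p = 0.0394). All 3 were lost without saline replicate 1 or 3, without bleomycin replicate 2 or 5, and with no intensity trend (adjusted p = 0.0568 to 0.206). They were also lost with libraries blocked by replicate number (adjusted p = 0.191 to 0.560).

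Lactate dehydrogenase B (Ldhb), the subunit that favours lactate use, went from 8.83, 8.69 and 6.36 to 750.1, 726 and 839.6 (log2 6.44 ± 0.23, adjusted p = 4.9e-06). Its saline values, from 9, 8 and 6 reads, were all under the filter of 10. Ldhb therefore passed the filter only through the bleomycin group and could be called only as higher. It was not tested with any bleomycin library left out. Lactate dehydrogenase A (Ldha), which favours lactate formation, did not pass, with 17596 ± 1834 and 19373 ± 2566 (log2 0.14 ± 0.14, adjusted p = 0.610). The mitochondrial pyruvate carrier, which takes pyruvate away from lactate formation, had 0 of 2 subunits called by limma, edgeR or DESeq2, and 0 at an unadjusted p under 0.05. Mpc1 read 954 ± 152 and 1072 ± 73.9 (log2 0.18 ± 0.14) and Mpc2 2050.1 ± 550.0 and 1666 ± 472 (log2 -0.30 ± 0.23).

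Of 8 genes for endocytosis and recycling of Slc2a1, 0 were called by limma, edgeR or DESeq2, with 2 at an unadjusted p under 0.05. Txnip, a glucose-induced arrestin that draws Slc2a1 from the surface, read 3235, 5858 and 2487 in saline and 6645, 5721 and 6100.1 after bleomycin (log2 0.77 ± 0.27, adjusted p = 0.110). Saline replicate 2 lay within the bleomycin range, and without it the gene passed (log2 1.11, adjusted p = 0.0041). Among 9 tested transcription factors known to act on transporter genes, Epas1, the second hypoxia-inducible factor alpha subunit, rose from 604 ± 151 to 2241 ± 516 (log2 1.89 ± 0.23, adjusted p = 0.00118). Hif1a did not pass (log2 0.59 ± 0.20, adjusted p = 0.101), with 3232, 5056 and 5277 in bleomycin replicates 1, 2 and 5. It passed without bleomycin replicate 1 (adjusted p = 0.0103) and by DESeq2 (adjusted p = 0.0324).

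Of the receptors for transported acids, Hcar2, which binds hydroxybutyrate and niacin, fell from 6362 ± 234 to 4009 ± 212 (log2 -0.67 ± 0.10, adjusted p = 0.0032). The Hcar2 call was lost with libraries blocked by replicate number (log2 -0.59, adjusted p = 0.231). The lactate receptor Hcar1 was at or near 0, with 3.92 in saline replicate 1 and 0 in the other 5 libraries. Of 5 ligands and membrane partners of basigin, the amino acid carrier Slc7a5 fell from 1575 ± 459.6 to 855 ± 96.8 (log2 -0.84 ± 0.22, adjusted p = 0.0368). That call did not hold when saline replicate 1, saline replicate 2, bleomycin replicate 2 or bleomycin replicate 5 was left out (adjusted p = 0.104 to 0.154), and with no intensity trend (adjusted p = 0.0942). Sodium-coupled carriers were scarce: of 10 listed genes with Slc50a1, 4 were in the table and 2 were tested, with 0 called by limma, edgeR or DESeq2 and 1 at an unadjusted p under 0.05.

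**Figure D5:**
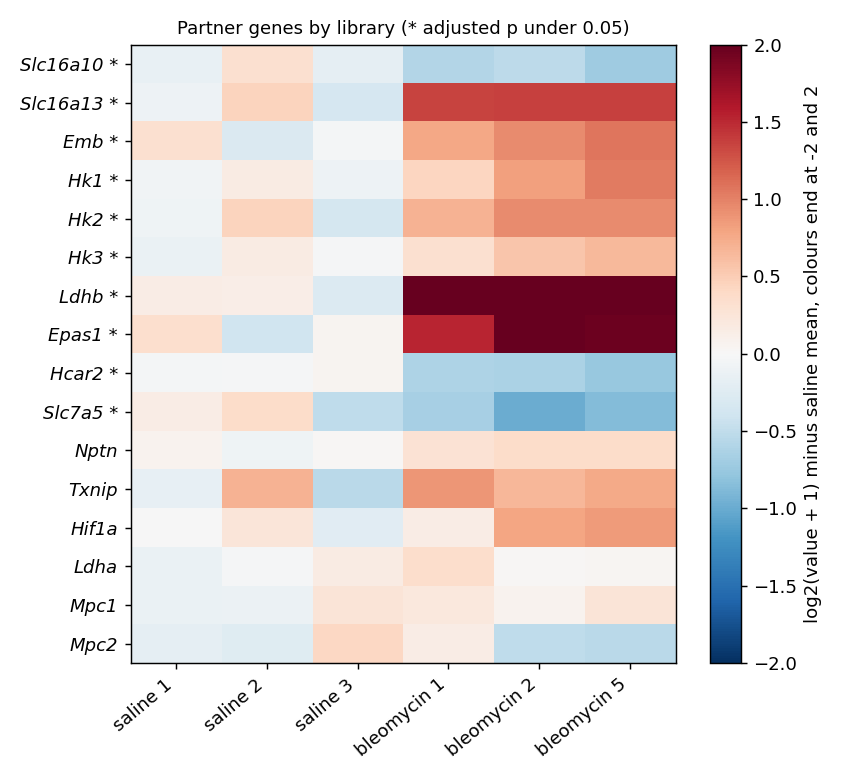
Log2(value + 1) minus the saline mean (colour, ending at -2 and 2) of partner genes (rows) in the 6 libraries (columns), with an asterisk at genes past an adjusted p of 0.05. Ldhb exceeds the scale in all bleomycin libraries, and Txnip in saline replicate 2 has the colour of the bleomycin libraries.

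The genes with the most similar course were found by the root mean square difference between log2 profiles over the 6 libraries, each centred on its own mean, among 9668 other tested genes with a mean of at least 100. For Slc2a1 these were Pex26, Gkap1 and Rcbtb1, at 0.076 to 0.088 against its own spread of 0.46. For Slc16a1 they were Gprc5c, Snx33 and Mettl13 at 0.11 to 0.12 against 0.41. For Slc2a6, with its high saline replicate 2, they were Pim1 at 0.18 and Cish and Btg2 at 0.25, against 0.77. Slc2a3 had no close match, the nearest being Awat1, Lpar5 and Nr1d1 at 0.47 to 0.55 against 1.03. The remaining members, with small spreads of their own, lay nearest to Zfand1, Arrdc1 and Aurkb (Slc2a8), Elovl1, Nqo2 and Rab1b (Slc16a3), Pcnt, Unc45a and Pex10 (Slc16a6) and Mvb12a, Paip2 and Eif5b (Bsg). The 6 points of each profile share their libraries and their division into 2 groups.

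Markers of other cell types moved with the groups, and in bulk RNA a change in the number of cells of a type cannot be told apart from a change in RNA per cell. Of all tested genes, 9.76% were called higher and 3.9% lower. Monocyte markers rose in 3 of 4 tested genes. Their sums were 31482 to 57548 in saline and 63092 to 143771 after bleomycin, most of it Fn1, which macrophages also express. T cell markers rose in 7 of 7 (10.9 to 35.3 against 185 to 610.3, with Cd8b1 at 0 in saline). Of these, Cd3e, Cd3d, Cd3g, Trac, Cd8a and Cd8b1 were under 10 in every saline library. They passed the filter only through the bleomycin group and could be called only as higher. Dendritic cell markers rose in 4 of 6 (285 to 631 against 989 to 2126). Among the called monocyte, T cell and dendritic cell markers, Ly6c2, Cd4, Flt3 and Cd209a also had at least 1 saline library under 10. They passed the filter only with bleomycin libraries counted, which favoured a call as higher. Neutrophil markers rose in 2 of 4, S100a8 and Cxcr2, with sums of 1464 to 2862 against 2927 to 3216. Csf3r (1249 ± 420 to 1125 ± 320) and S100a9 (172 ± 287 to 37.9 ± 17.7) did not pass. The saline mean of S100a9 came mostly from saline replicate 2, at 503. Below the filter, Retnlg had 11 reads in saline against 3, and Mpo 0 against 7.

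Epithelial markers rose in 4 and fell in 1 of 7 tested genes, where 9.76% of all tested genes were called higher and 3.9% lower. Their sums were 5807 to 6943 against 4411 to 4827. The lower sum came from Epcam, which fell from 4378 ± 452 to 1426 ± 467, while Sftpc (41.5 ± 4.57 to 342 ± 137), Sftpb (14.8 ± 6.48 to 151 ± 91.7), Krt8 (14.3 ± 12.4 to 264 ± 98.1) and Krt18 (17.4 ± 5.17 to 316 ± 125) rose. Fibroblast markers rose in 2 of 5 (35.3 to 323 against 224 to 860). Of the 2, Dcn read 0, 0 and 9.54 in saline, passed the filter only through the bleomycin group and could be called only as higher. Col3a1, and among the epithelial markers Sftpb and Krt8, had at least 1 saline library under 10. They passed the filter only with bleomycin libraries counted, which favoured a call as higher. Endothelial markers summed to 6.52 to 20.6 against 28.7 to 80.2, with 0 of 1 tested gene called by limma and edgeR, 1 by DESeq2 and 1 at an unadjusted p under 0.05. Eosinophil markers stayed at 5.88 or less in all libraries. Red cell markers summed to 9.78 to 16.7 in saline and 10.3 to 126 after bleomycin, with 0 of 1 tested gene called by limma and edgeR, 1 by DESeq2 and 0 at an unadjusted p under 0.05. The part of the other cell types in the rises of Slc2a1, Slc16a1, Emb and Ldhb was not tested.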

How the data were processed

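The submitters' processing notes name HTSeq 0.6.0, STAR 2.5.2b, bcl2fastq 2.18.0.12, DESeq2 and the build mm10, without their roles. Which annotation release and strand setting were used is not given in the sources used here. Deposited was the authors' normalized signal, in which each library's read counts were scaled by its own size factor. In each library 100% of values above 0 were whole multiples of the smallest (within 0.05 of a read), so read counts were recovered, 27654799 to 37147983 per library, and this limits precision for genes near 3 reads (values of 2.59 to 3.30). Symbols from GENCODE M21 matched 22873 of 22962 identifiers.

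Genes at 10 or more in at least 3 libraries (13512, all 8 members included) were compared between the labelled groups. Limma 3.58.1 in R 4.3.3 was used, two-sided, on log2(value + 1) with an intensity trend, no other term and Benjamini-Hochberg adjustment. Fold changes of low genes can differ from those on recovered reads in either direction. Slc2a3 had log2 1.15 by limma against 0.74 by edgeR, and Ldhb 6.44 against 6.57. Ratios were tested with scipy 1.17.1. The design held limma because the values are normalized; edgeR 4.0.16 (1821 genes called) and DESeq2 1.42.0 (2313) were run on recovered reads as alternatives, beside other pseudocounts (0.5, 5), other filters (none, 50), TMM, quantile normalization, robust variances, no trend, a replicate block and leaving out each library. The scripts were tested on simulated counts, 3 libraries against 3. The limma test recovered 69.1% of 2-fold and 88.0% of 4-fold changes. Of its calls, 8.08% fell on unchanged genes, above the 5% that the threshold names.

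The members and gene lists (10 of transporters and partners, 11 of cell type markers) were chosen with earlier results of these data known. The result of 1 cell type list is not reported here. Named were the members, tested Slc2a and Slc16a genes, called genes of the other lists, Txnip, Emb, Nptn, Mpc1, Mpc2, Ldha and Hif1a, and the 3 genes nearest in profile to each member. Hcar1, Slc2a4, Slc50a1, Gm12868, Slc16a11, Siglecf, Fcgr1, Marco, Itgax, Cd68, Myc and Fn1 were named after their values were seen. So were Dcn, Col3a1, Ly6c2, Flt3, Cd209a, 5 epithelial markers and the T cell and neutrophil markers given by name.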

Additional observations from a re-analysis of the deposited data

How the results depend on the processing

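Of all tested genes 1846 were called, 664 to 1675 with a library left out and 1147 with the replicate block. Of the 8 transporter genes 2 were called, 0 with the replicate block, 1 with no intensity trend and 0 to 3 with a library left out. Of the other transporters, chaperones and partner genes together 10 were called, 4 with the replicate block, 6 with no intensity trend and 3 to 10 with a library left out. These counts otherwise stayed within 1.5 times. Under the block Slc2a1 had log2 0.70 (adjusted p = 0.139) and Slc16a1 0.51 (adjusted p = 0.435). Replicate numbers 1 and 2 occur in both groups, numbers 3 and 5 in 1 group each, and whether the numbers pair the samples was not settled. Deviations of same-numbered libraries from their group means correlated at -0.20 and 0.024. These values cannot decide it, because each group mean also includes an unmatched library.

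The sign changed for 3 genes that were not called. Slc2a6 had -0.041 by edgeR, -0.031 by DESeq2 and -0.22 to 0.99 with a library left out. Slc16a3 had 0.080 with the block and -0.050 to 0.090 with a library left out. Mpc2 had 0.023 with the block. The log2 ratio of Slc2a3 to Slc2a1 moved by 0.31 between groups, by -0.26 to 1.16 with a library left out and by -0.36 within replicate numbers 1 and 2 (the replicate block). With the longest transcript as length, the bleomycin shares of the Slc16a sum were 16.5% for Slc16a1, 27.0% for Slc16a3 and 35.9% for Slc16a10, in place of 19.9%, 26.5% and 31.7%. The cause was not tested in any of these. Ldhb and the low genes Slc2a3, Slc2a5, Slc16a4 and Slc16a14 could not be tested under every alternative.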
